A study of Mus musculus with 18 samples.

Results

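The genes described here are 34 named members of cholesterol synthesis, uptake and handling, chosen by symbol from the 52230 genes to which the deposited transcripts were joined. They comprise 19 enzymes of synthesis, 4 genes of sterol-regulatory element binding protein (SREBP) control, 3 of uptake, 4 of intracellular transport and storage, and 4 of export. All 34 had at least 10 estimated counts in at least 4 libraries and were tested, among 10938 genes in all. The livers came from the knock-in line GCKR-P446L-EMI-B6N, which has a substitution at residue 446 of glucokinase regulatory protein (GKRP), which binds glucokinase in the hepatocyte nucleus. RNA of whole liver was sequenced from 4 male PP and 4 male LL mice and from 5 female PP and 5 female LL mice, where PP is the wild-type 446PP genotype and LL carries 446LL on both alleles in every cell, not in hepatocytes alone. All mice had standard chow. By their labels, male PP mice were 9 to 14 weeks old, male LL 13 to 14, female PP 9 to 14 and female LL 11 to 14, although the series description gives 14 weeks for all. The labels number the samples of a group and name no animals, so the p-values measure the spread between these samples. The estimates carry no base calls, so the genotype labels were not checked here.

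Hepatocytes make cholesterol from acetyl-CoA through mevalonate, farnesyl pyrophosphate, squalene and lanosterol, take it up from lipoproteins, and dispose of it by secretion into bile or transfer to high-density lipoprotein. When membrane sterol is low, SCAP carries SREBP2 (encoded by Srebf2) from the endoplasmic reticulum to the Golgi, where it is cut to release a transcription factor that binds sterol-regulatory elements beside NF-Y at promoters of synthesis genes. INSIG proteins hold SCAP back when sterol is high, whereas oxysterols act through LXR to induce transporters of cholesterol export such as Abca1, Abcg5 and Abcg8.

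Promoter sequence is shown for 4 synthesis genes whose levels deviated together between mice, since SREBP2 and NF-Y sites are the textbook promoter elements of the pathway. The 4 were chosen after the matches were seen. Cyp51, whose levels went along as closely, had 1 CCAAT match, after its start, and Idi1 and Dhcr7, which also went along, had 0. Ggps1 and Ebp, whose levels did not go along, had 3 and 2 CCAAT matches. Windows ran from 250 bases before to 50 after the start of the most abundant protein-coding transcript (GRCm39, GENCODE M39), and were searched on both strands for TCACNCCAC (an SRE form) and CCAAT (the NF-Y core, read ATTGG on the other strand). The SRE form was in 1 of 34 members, against 1.12% of the 10937 promoters of genes tested. CCAAT was in 22 of 34 members (64.7%) and in 14 of the 19 synthesis genes (73.7%), against 39.7% of all promoters. Each stretch below is 80 bases, 5′ to 3′ on the strand of the gene, with matches in capitals. Hmgcs1 (HMG-CoA synthase) at chr13:120151750-120151829, plus strand, held the SRE form. The 2 CCAAT matches of Hmgcs1 lay nearer its start, outside the stretch shown. Sqle (squalene epoxidase) at chr15:59186765-59186844, plus strand, Fdps (farnesyl pyrophosphate synthase) at chr3:89009356-89009435, minus strand, and Fdft1 (squalene synthase) at chr14:63415443-63415522, minus strand, each held CCAAT on at least 1 strand.
Hmgcs1: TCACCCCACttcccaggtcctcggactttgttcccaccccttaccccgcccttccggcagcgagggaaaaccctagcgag
Sqle: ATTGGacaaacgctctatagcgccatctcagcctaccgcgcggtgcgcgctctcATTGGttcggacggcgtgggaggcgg
Fdps: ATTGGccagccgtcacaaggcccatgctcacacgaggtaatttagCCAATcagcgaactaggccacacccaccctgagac
Fdft1: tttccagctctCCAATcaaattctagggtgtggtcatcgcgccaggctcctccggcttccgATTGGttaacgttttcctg
A match is a run of letters, and binding was not measured.

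Abcg5 and Abcg8, the half-transporters that form the sterol pump of the bile canaliculus, lie head to head on chromosome 17. Their starts are 84990439 on the minus strand and 84990452 on the plus strand, so that 12 bases (capitals) separate them. The stretch shown is chr17:84990416-84990475 on the plus strand of GRCm39.
Abcg5 and Abcg8: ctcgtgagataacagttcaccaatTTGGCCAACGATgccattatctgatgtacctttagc
Their promoter windows overlap, and the CCAAT matches counted for the pair are therefore partly the same letters.

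All 6 hepatocyte markers were detected in every group. Libraries held 3794671 to 6613905 estimated counts. Mean fragment length was not measured directly. It was inferred for each library as the median, over long transcripts, of length minus effective length. The inferred value ranged from 202.9 to 631.0 bases and differed by group, at 518 ± 95.8 bases in male PP, 407 ± 156 in male LL, 448 ± 108 in female PP and 292 ± 52.1 in female LL (SD). The mitochondrial share of counts was 9.5% ± 1.0 in male PP and 12.6% ± 3.73 in male LL (17.9% in male LL 1), with 10.2% ± 1.11 in female PP and 12.5% ± 1.34 in female LL, and its part in the genotype comparisons was not tested. Across the 10938 genes the log2 fold change by LL genotype in female mice had a Spearman correlation of -0.39 with effective transcript length, and across the 34 members of -0.37. The corresponding values in male mice were -0.10 and -0.22. Genes are not independent replicates, and the part of fragment length in the results was not tested beyond the fits with it as a term and with transcript length as an offset.

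Levels were compared between genes in TPM, in which each transcript's count is divided by its effective length and scaled to a common total. Lcat, the plasma enzyme that esterifies cholesterol on high-density lipoprotein, had the highest mean of the 34 over all mice (158 TPM, range 76.3 to 247) and in both female groups, whereas Fdps was highest in male PP (116 TPM) and Ebp in male LL mice (152 TPM). Over all mice Fdps followed at 146 TPM, and the late sterol enzymes Ebp (135 TPM) and Sc5d (132 TPM) came next. Ranges over mice overlapped for all 4 of these genes. Sqle, the epoxidase that commits squalene to sterols, had 12.7 TPM (4.17 to 22.4) and Srebf2 4.17 TPM (at most 7.16). At the lower end, Mvk (mevalonate kinase) had 3.87 TPM and Mylip, a ubiquitin ligase that removes lipoprotein receptors, 0.549 TPM with a mean normalized count of 11.1, so little could be detected for it at this depth.

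**Figure D1:**
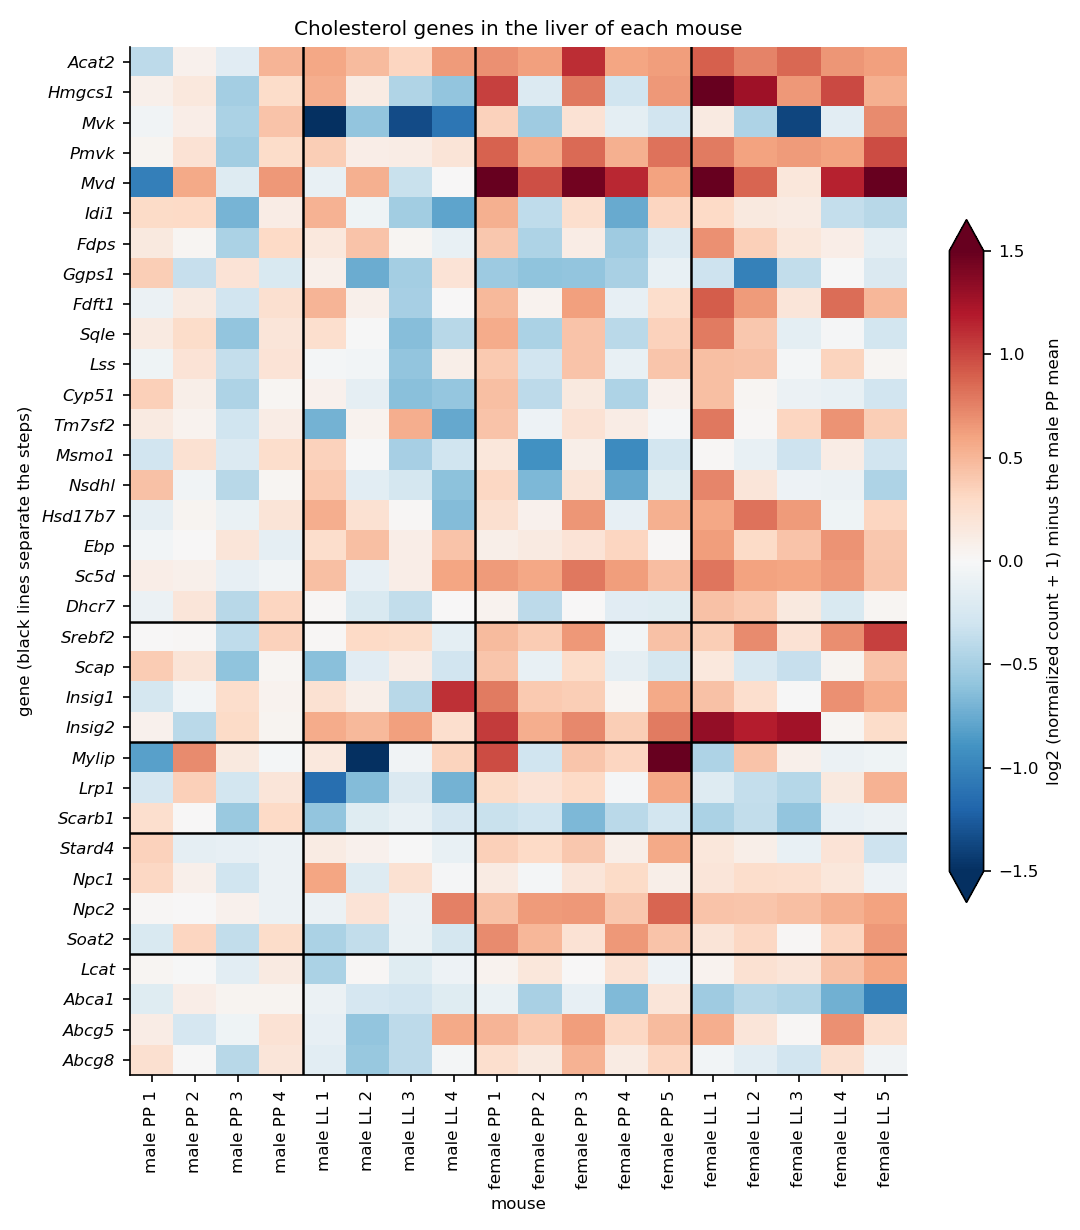
Each cell is the log2 (normalized count + 1) of 1 gene (rows, ordered by step) in 1 mouse (columns, by group) minus the male PP mean, from blue (lower) to red (higher). Mvk is blue in the 4 male LL mice, Pmvk, Mvd and Acat2 are red in the female mice, and columns such as female PP 2 and female PP 4 are bluer than the other female PP columns in Hmgcs1, Idi1, Fdps, Fdft1, Sqle, Lss, Cyp51, Msmo1 and Nsdhl.

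The LL genotype was compared with PP within each sex to ask whether the substitution was accompanied by a different level of cholesterol genes on chow. None of the 34 members was a differentially expressed gene (DEG) by LL genotype in male or in female mice, a DEG being a gene with a DESeq2 adjusted P under 0.05 and a fold change that reached 1.3 upwards or 0.7 downwards. Over all genes tested 0.283% were DEGs in male and 0.658% in female mice. At an unadjusted p below 0.05 there were 5 members in male mice (7.81% of all genes) and 6 in female mice (13.0% of all genes). With edgeR 0 members were called in either sex, but it also called far fewer of all genes by genotype than DESeq2 (counts in the closing section). An adjusted P was given for 27 of the members in male and 33 in female mice. The median log2 fold change of the members was -0.12 in male mice and 0.03 in female mice, against 0.00 and 0.01 for all genes. In whole liver, fewer cells of a type and less RNA per cell cannot be told apart in any of these values.

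**Figure D2:**
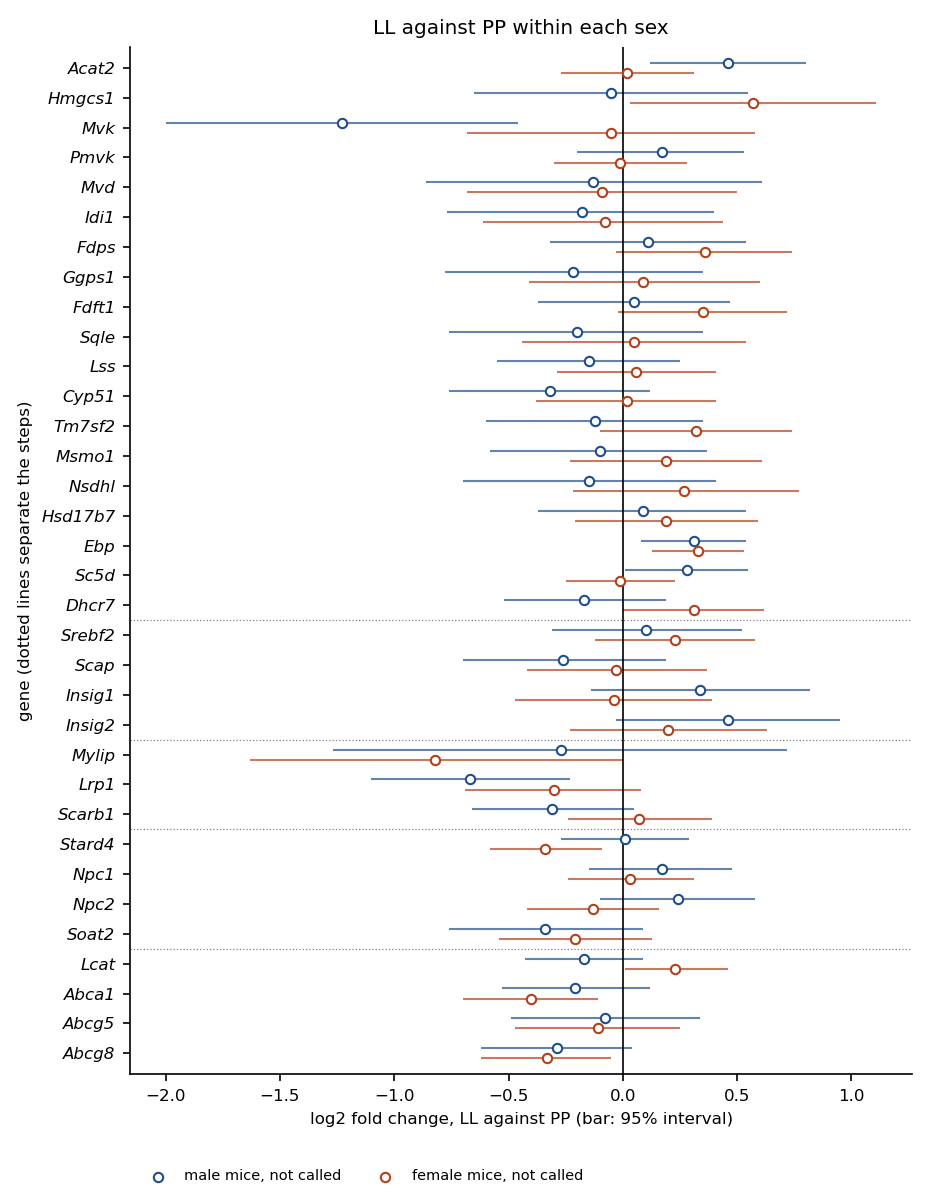
Log2 fold change of LL against PP (horizontal axis) for the 34 genes in male (blue) and female mice (red), with 95% intervals. All points are open, since 0 of 34 genes passed the adjusted P and fold limits in either sex.

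Among the synthesis enzymes, Mvk, which phosphorylates mevalonate (chr5:114582267-114601803), had the lowest point estimate in male mice. Normalized counts of Mvk were 32.0, 35.7, 23.5 and 45.0 in the male PP mice and 9.1, 21.6, 12.5 and 15.1 in the male LL mice. Each male LL mouse was below each male PP mouse, as was the case for 2.27% of all genes. In TPM the groups overlapped, at 2.27 to 6.65 in male PP and 1.53 to 4.51 in male LL mice. DESeq2 estimated a log2 fold change of -1.23 ± 0.39 (SE, 95% interval -2.0 to -0.46, unadjusted p = 0.0017), but gave Mvk no adjusted P because its mean count fell below the independent filter. In the 14 of 28 alternatives that gave one, the adjusted P lay between 0.122 and 0.638. In female mice the means were 32.1 ± 8.14 in PP and 31.3 ± 15.8 in LL, and the groups overlapped throughout.

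Ebp, the isomerase that shifts the ring double bond of late sterols (chrX:8050773-8059795), had normalized counts of 762, 788, 889 and 715 in male PP and 947, 1075, 840 and 1056.5 in male LL mice. In female PP mice it had 836, 861, 905, 986.5 and 796, and in female LL mice 1214, 955, 1058, 1250 and 1042. In each sex the LL mice were mostly higher, and 1 LL mouse lay within the PP range (male LL 3 and female LL 2). The log2 fold changes were 0.31 ± 0.12 (adjusted P = 0.214) in male and 0.33 ± 0.10 (adjusted P = 0.077) in female mice. Averaged over the sexes the value was 0.32 ± 0.08 with an adjusted P of 0.00651, but the fold of 1.25 was below the 1.3 limit, and the adjusted P ranged from 0.00159 to 0.505 over the alternatives. A transcript annotated as a retained intron, Ebp-202, held 31.8% ± 13.3 of the estimate in male PP, compared with 28.6% ± 25.0 in male LL. In female mice its share was 15.7% ± 11.6 for PP and 22.4% ± 15.2 for LL.

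Acat2, a cytosolic thiolase that makes acetoacetyl-CoA, had 130, 179, 151 and 243 normalized counts in male PP and 255, 239, 214 and 268 in male LL mice, and only male PP 4 reached the LL range. In male mice the estimate was 0.46 ± 0.17 on the log2 scale (adjusted P = 0.217). Acat2 was called with fragment length as a term (0.64, adjusted P = 0.0131) and without male PP 4, the values under alternatives running from 0.35 to 0.70. In female mice Acat2 had a log2 fold change of 0.02 ± 0.15. Of its 31-base words 24.7% are shared with other genes, mostly Acat3, so its estimate is uncertain. The sum of Acat2 and Acat3, examined after the data were seen, averaged 1335 ± 145 for male PP against 1420 ± 69.2 for male LL, and these overlapped.

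Hmgcs1, which makes HMG-CoA, had 1299, 550, 1104, 519 and 1002 normalized counts in female PP and 1924, 1533, 998.5, 1262 and 920 in female LL mice. The LL mean was higher (1328 ± 411 against 895 ± 346) but 3 PP mice lay within the LL range. In female mice this gave a log2 fold change of 0.57 ± 0.27 (unadjusted p = 0.0376, adjusted P = 0.298), and in male mice -0.05 ± 0.31. Sqle had -0.20 ± 0.28 in male and 0.05 ± 0.25 in female mice, and its 95% intervals (-0.76 to 0.35 and -0.44 to 0.54) did not exclude changes of the size a DEG needs. Of the 19 enzymes 7 had a log2 fold change above 0 in male and 14 in female mice, beside 50% and 51.6% of all genes.

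No gene of SREBP control passed the test by LL genotype. Insig2, an INSIG protein, had 266, 191, 310 and 261 normalized counts in male PP and 373, 354, 389 and 301 in male LL mice, of which only male LL 4 lay within the PP range. Its log2 fold change was 0.46 ± 0.25 (adjusted P = 0.473), and 0.20 ± 0.22 in female mice. The value averaged over the sexes, 0.33 ± 0.17, was -0.27 when transcript length was an offset. Insig1 had 1168 ± 546 in male LL against 921 ± 139 in male PP mice, with male LL 4 at 1950 and the other 3 male LL mice between 685 and 1067. Srebf2 had log2 fold changes of 0.10 ± 0.21 and 0.23 ± 0.18, and Scap, the SREBP escort, of -0.26 ± 0.23 and -0.03 ± 0.20, in male and female mice respectively.

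Lrp1, a large endocytic receptor for lipoprotein remnants (chr10:127374012-127457017), had 1006, 1539, 995.5 and 1359 normalized counts in male PP mice and 547, 768.5, 1031.5 and 735 in male LL mice. All but male LL 3 were below the PP range. The log2 fold change was -0.67 ± 0.22 (adjusted P = 0.131) in male and -0.30 ± 0.20 (adjusted P = 0.479) in female mice. Averaged over the sexes it was -0.49 ± 0.15 with an adjusted P of 0.0477, a fold of 0.714 that missed the 0.7 limit. Lrp1 was called in 6 of the 27 alternatives to the averaged fit, whereas with transcript length as an offset the value was -0.17 (adjusted P = 0.809). Its leading transcript has 14888 bases. Kupffer cell markers were also lower in LL mice. Their median log2 fold change over 5 markers was -0.57 in male and -0.32 in female mice, with Vsig4 a DEG in the averaged comparison (-0.57, adjusted P = 0.0457). Their summed normalized counts were 408 to 1005 in male PP, 358 to 669 in male LL, 746 to 930 in female PP and 452 to 727 in female LL mice, all 5 being detected, and their part in the Lrp1 value was not tested. Scarb1, the high-density lipoprotein receptor, had -0.31 ± 0.18 in male and 0.07 ± 0.16 in female mice. Mylip had -0.82 ± 0.42 in female mice, from 16.1 ± 8.76 to 9.27 ± 2.35 normalized counts.

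Of the transport and storage genes, Stard4, a soluble sterol carrier, had 600, 572, 618.5, 495.5 and 694 normalized counts in female PP and 523.5, 497, 431, 536 and 375 in female LL mice. The LL mice were on the low side but 3 of them lay within the PP range. A log2 fold change of -0.34 ± 0.13 in female mice (adjusted P = 0.161) compared with 0.01 ± 0.14 in male mice. Npc1 and Npc2, which pass cholesterol out of lysosomes, and Soat2, which esterifies it, had log2 fold changes between -0.34 and 0.24 in the male and female comparisons, with no adjusted P below 0.5 where DESeq2 gave one.

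Among the export genes, Abca1, which loads cholesterol onto apolipoprotein A-I, had 443, 538, 517 and 517 normalized counts in male PP and 472, 422, 411 and 443 in male LL mice. In female PP mice the values were 467, 357, 461, 318 and 568, and in female LL mice 348, 375, 366, 304 and 248. The LL mice were low in both sexes, but the groups overlapped, with log2 fold changes of -0.21 ± 0.17 in male and -0.40 ± 0.15 (adjusted P = 0.156) in female mice. Abcg8 averaged 210 ± 29.7 in female LL against 264 ± 30.3 in female PP mice (-0.33 ± 0.15, adjusted P = 0.245) and -0.29 ± 0.17 in male mice. Abcg5 had -0.11 ± 0.19 and -0.08 ± 0.21 in female and male mice. Averaged over the sexes, Abca1 and Abcg8 each had -0.31 ± 0.11, with adjusted P values of 0.108 and 0.0994. Lcat had 0.23 ± 0.12 in female mice (adjusted P = 0.324) and -0.17 ± 0.13 in male mice.

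**Figure D3:**
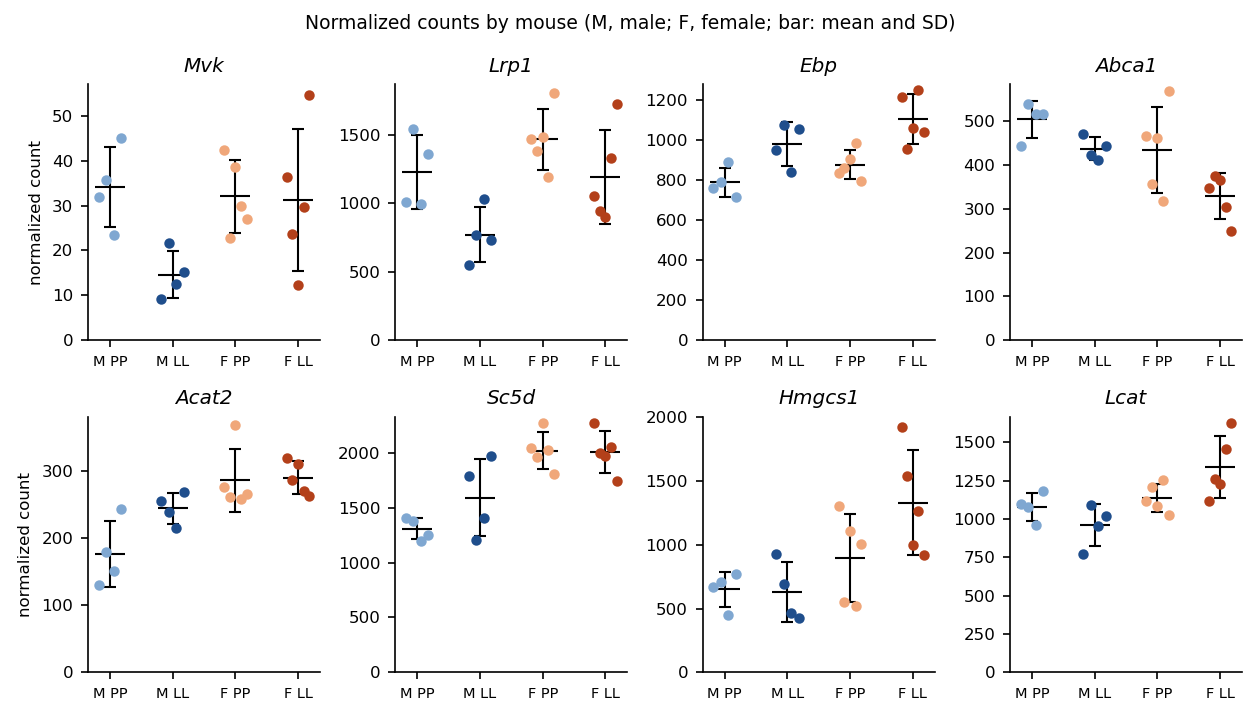
Normalized counts of 8 genes in each mouse (points) with the group mean and SD (bars); the vertical axes start at 0. Mvk in male LL mice lies below all male PP mice, Lrp1 and Abca1 are on the low side in LL mice, and Acat2 and Sc5d are higher in female than in male PP mice.

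Averaged over the sexes, 0 of 34 members were DEGs by LL genotype with DESeq2 (0.978% of all genes). With edgeR 0 were, though edgeR again called far fewer of all genes. In the DESeq2 fit 7 members had an unadjusted p below 0.05 (13.8% of all genes). Ebp and Lrp1 were the 2 members with an adjusted P below 0.05, beside 1.65% of all genes. The genotype by sex interaction asks whether the effect of LL differed between female and male mice. It was not significant for any member with DESeq2 (0 of 34, beside 0.119% of all genes) or with edgeR (0 of 34). Over all genes edgeR called fewer here as well. DESeq2 gave an adjusted P for 19 of the 34 members there, and none for Mvk. At an unadjusted p below 0.05 there were 3 members (5.67% of all genes), namely Mvk (1.18 ± 0.51), Dhcr7, the last enzyme of the 7-dehydrocholesterol route (0.47 ± 0.24), and Lcat (0.40 ± 0.18, adjusted P = 0.399). Differences between the sexes in the LL effect were therefore not shown at this depth and number of mice.

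Female mice were compared with male mice within each genotype. In PP mice 6 of the 34 members were DEGs, all of them higher in female mice, beside 6.45% of all genes in either direction and 3.68% higher. These were Acat2, Pmvk and Mvd of the mevalonate pathway, Sc5d of the late sterol steps, Insig2 and Npc2. In LL mice 7 were DEGs, again all higher in female mice (6.12% of all genes in either direction, 3.33% higher): Hmgcs1, Mvk, Pmvk, Mvd, Lrp1, Soat2 and Lcat. Pmvk and Mvd were DEGs in both genotypes, which have no mice in common. Acat2, Pmvk and Npc2 in PP mice, and Hmgcs1 and Lcat in LL mice, were called in 27 of 28 alternatives. Mvd was called in 21 (PP) and 18 (LL) of 28, and Pmvk in LL mice in 20. In PP mice 6 members were higher in every female than in every male mouse (5.21% of all genes), and in LL mice 3 members were (3.64% of all genes). The log2 fold change was above 0 for 25 of 34 members in PP mice (49.8% of all genes) and 29 of 34 in LL mice (51.5% of all genes), with medians of 0.22 and 0.32, against 0.00 and 0.01 for all genes.

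**Figure D4:**
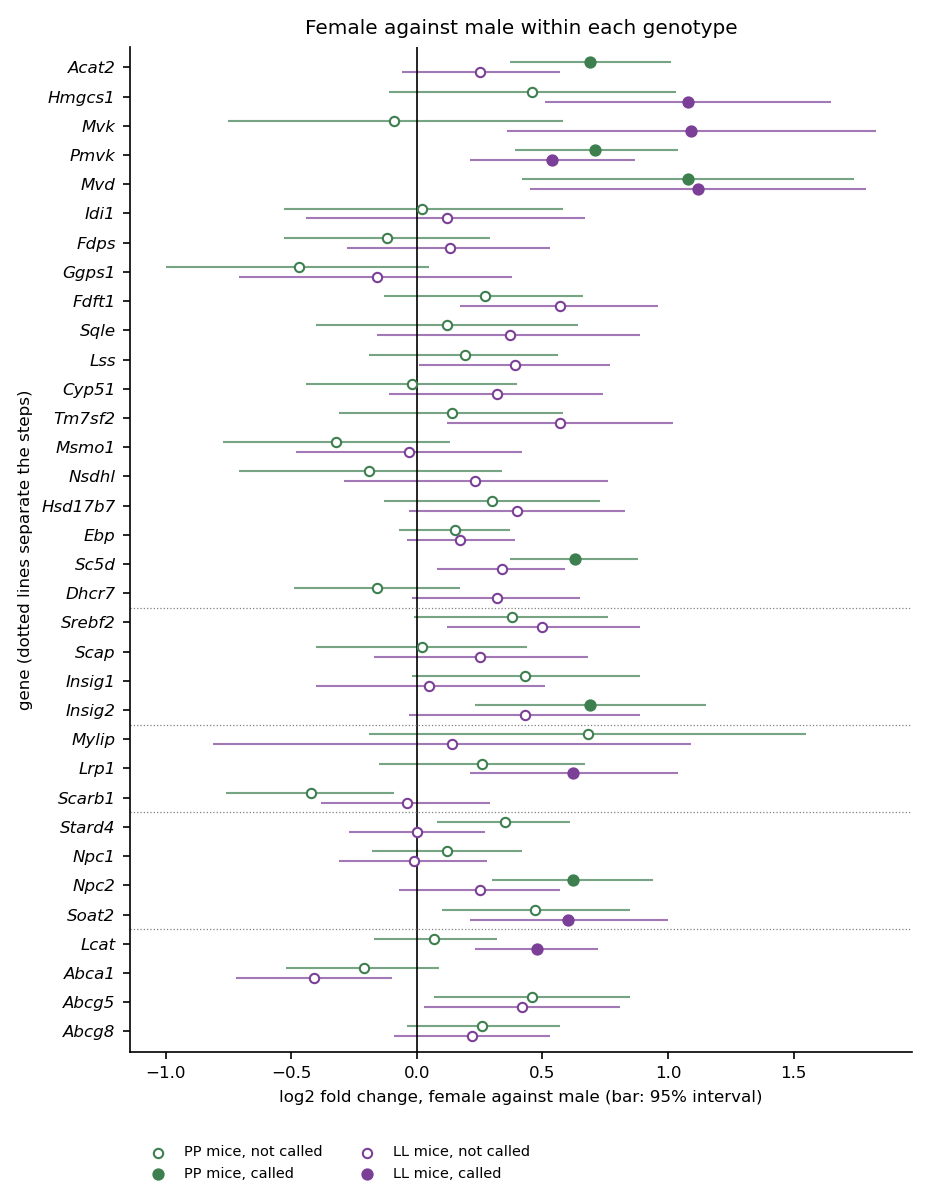
Log2 fold change of female against male mice (horizontal axis) for the 34 genes in PP (green) and LL mice (purple), with 95% intervals. Filled points are the 6 DEGs in PP and the 7 DEGs in LL mice, and all of them lie to the right of 0.

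Pmvk, phosphomevalonate kinase, had 68.8, 77.6, 46.1 and 81.0 normalized counts in male PP and 124, 99.1, 121, 96.9 and 119 in female PP mice. In LL mice it had 86.8, 71.9, 72.3 and 76.7 in males and 116, 102, 105, 102 and 132 in females. Female and male mice did not overlap in either genotype. The log2 fold changes were 0.71 ± 0.17 (adjusted P = 0.000751) in PP and 0.54 ± 0.17 (adjusted P = 0.0252) in LL mice. Mvd, which decarboxylates mevalonate pyrophosphate to isopentenyl pyrophosphate, had 26.3 ± 12.6 in male PP and 57.1 ± 17.3 in female PP mice, and 24.8 ± 6.95 in male LL and 53.7 ± 19.0 in female LL mice. The groups overlapped slightly in both genotypes, with log2 fold changes of 1.08 ± 0.34 (adjusted P = 0.0229) and 1.12 ± 0.34 (adjusted P = 0.0214). Of the 31-base words of Mvd 15.1% are shared with another gene, Gm51557.

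Sc5d, the sterol C5-desaturase (chr9:42162891-42175605), had 1405, 1381, 1199 and 1255 normalized counts in male PP and 2041, 1959, 2266, 2025 and 1805 in female PP mice. No female PP mouse was as low as a male one. Sc5d thus had a log2 fold change of 0.63 ± 0.13 in PP mice (adjusted P = 8.38e-05). In LL mice it was 0.34 ± 0.13 (adjusted P = 0.0994), since male LL 1 and male LL 4, at 1786 and 1970.5, reached the female range of 1744 to 2273. In PP mice Acat2 was higher in females (286 ± 46.6) than in males (176 ± 49.2), without overlap (0.69 ± 0.16, adjusted P = 0.000775), and had 0.25 ± 0.16 in LL mice. The sum of Acat2 and Acat3 was 1494 ± 215 in female PP mice and overlapped the male PP range of 1197 to 1509.

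Hmgcs1 had 929, 694, 464 and 424 normalized counts in male LL mice, and of the female LL mice listed above only female LL 5, at 920, was below the highest of them. Hmgcs1 had a log2 fold change of 1.08 ± 0.29 (adjusted P = 0.00651) in LL and 0.46 ± 0.29 (adjusted P = 0.447) in PP mice. Mvk had 1.09 ± 0.37 (adjusted P = 0.0496) in LL mice, with 14.6 ± 5.29 in male LL and 31.3 ± 15.8 in female LL mice, and -0.09 ± 0.34 in PP mice. Mvk was called in 6 of the 28 alternatives, and with transcript length as an offset its value was 0.37. Fdft1 (0.57 ± 0.20, adjusted P = 0.0605) and Tm7sf2, a sterol C14-reductase (0.57 ± 0.23, adjusted P = 0.111), were on the higher side in female LL mice without passing the test. Of the 31-base words of Hmgcs1 18.8% are shared with other genes, and of those of Fdft1 34.1%, mostly with Ctsb.

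Of the SREBP control genes Insig2 was higher in female PP mice (525, 369, 417, 326 and 437) than in male PP mice, where its highest count was 310, so that the groups did not overlap. The log2 fold change was 0.69 ± 0.24 (adjusted P = 0.049). It was called in 11 of 28 alternatives, and it was not called without any 1 of the male PP mice 1, 2 and 4 or the female PP mice 1, 2, 3 and 5. In LL mice Insig2 had 0.43 ± 0.23 (adjusted P = 0.292). Srebf2 had 0.38 ± 0.20 in PP and 0.50 ± 0.20 in LL mice (adjusted P = 0.304 and 0.0989), from 87.3 ± 18.0 in male PP, 93.6 ± 13.6 in male LL, 113 ± 18.9 in female PP and up to 134 ± 29.8 in female LL mice.

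Npc2, the soluble lysosomal cholesterol-binding protein, had 133, 132, 137 and 123 normalized counts in male PP and 178, 205.5, 206.5, 174 and 241.5 in female PP mice, without overlap (0.62 ± 0.16, adjusted P = 0.00408). Npc2-203, annotated as a retained intron, held 73.0% ± 7.7 of the estimate in male PP and 49.6% ± 7.93 in female PP. Its counts were 95.9 ± 10.4 and 101 ± 28.4, and those of the protein-coding Npc2-201 were 35.6 ± 10.8 and 100 ± 9.05. In LL mice Npc2 had 0.25 ± 0.16, with male LL 4 at 222.5 above all female LL mice. Soat2 was higher in female LL (70.1 ± 11.7) than in male LL mice (45.6 ± 5.35), with no overlap (0.60 ± 0.20, adjusted P = 0.0421, called in 14 of 28 alternatives), and had 0.47 ± 0.19 in PP mice (adjusted P = 0.121). Lrp1 was higher in female LL than in male LL mice (0.62 ± 0.21, adjusted P = 0.0453) with overlapping groups, and was called in 11 of 28 alternatives. With transcript length as an offset its value was 0.14. Of the 5 Kupffer cell markers only Vsig4 was called in this comparison, also higher in female LL mice (0.85, adjusted P = 0.016). The median log2 fold change over the 5 was 0.18. Their part in the Lrp1 value was not tested.

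Lcat had 774, 1095, 952 and 1022 normalized counts in male LL and 1117, 1265, 1227, 1460 and 1625 in female LL mice, and no female LL mouse was as low as a male one. The log2 fold change was 0.48 ± 0.13 (adjusted P = 0.00504), and 0.07 ± 0.12 in PP mice. Abca1 was the member that lay entirely lower in female LL mice (248 to 375) than in male LL mice (411 to 472), as did 4.53% of all genes, without passing the adjusted test (-0.41 ± 0.16, adjusted P = 0.099). Abcg5 was higher in all female PP (311 to 386) than in all male PP mice (210 to 291), also without passing it (0.46 ± 0.20, adjusted P = 0.17).

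Age was not balanced between the sexes in either genotype, or between PP and LL mice. The youngest mice were 9 weeks old in both PP groups, 13 weeks in male LL and 11 weeks in female LL. An alternative chosen after the data were seen used only mice of 12 weeks or more, which left 2 female PP and 3 male PP mice. With these mice 0 of 34 members were DEGs by sex in PP mice and Lcat was the only DEG in LL mice. Fewer of all genes were called by sex in them as well, in both genotypes (counts in the closing section). The log2 fold changes in these fewer PP mice were 0.66 for Pmvk, 0.67 for Npc2, 0.58 for Sc5d and 0.59 for Insig2, with 0.45 for Acat2 and 0.52 for Mvd. In the LL mice they were 0.76 for Hmgcs1, 1.13 for Mvk, 0.56 for Pmvk, 1.03 for Mvd, 0.78 for Lrp1 and 0.65 for Soat2. Markers of stellate cells were higher in female PP mice as well, with all 3 that were tested called (Dcn, Lrat and Reln) and summed counts over 4 markers of 256 to 545 in male PP and 630 to 865 in female PP mice. Endothelial markers summed to 162 to 275 and 285 to 547, with 2 of 4 called, and the hepatocyte sum was 415025 to 511823 in male PP and 717170 to 836750 in female PP mice. That sum was mostly Alb (348169 and 666570 on average), the 1 marker of 6 that was called (0.94), whereas Apoa1 had 0.01 and Cyp2e1 -0.49. The part of these shifts in the sex differences of the cholesterol genes was not tested.

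Mice of the same group differed from each other in a way that was shared by much of the synthesis pathway. Deviations of log2 (normalized count + 1) from the group mean were compared over the 18 mice. Hmgcs1 and Sqle deviated together with a Pearson r of 0.97 (permutation P = 2e-05, adjusted P = 0.00012 over 6 pairs of genes) and a Spearman rho of 0.94 (permutation P = 4e-05, adjusted P = 0.00024). Leaving out the 2 mice farthest from the median of Hmgcs1 gave r = 0.97, and within the groups r was between 0.95 and 0.99. The permutations exchanged mice within their group, 100000 times and two-sided.

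**Figure D5:**
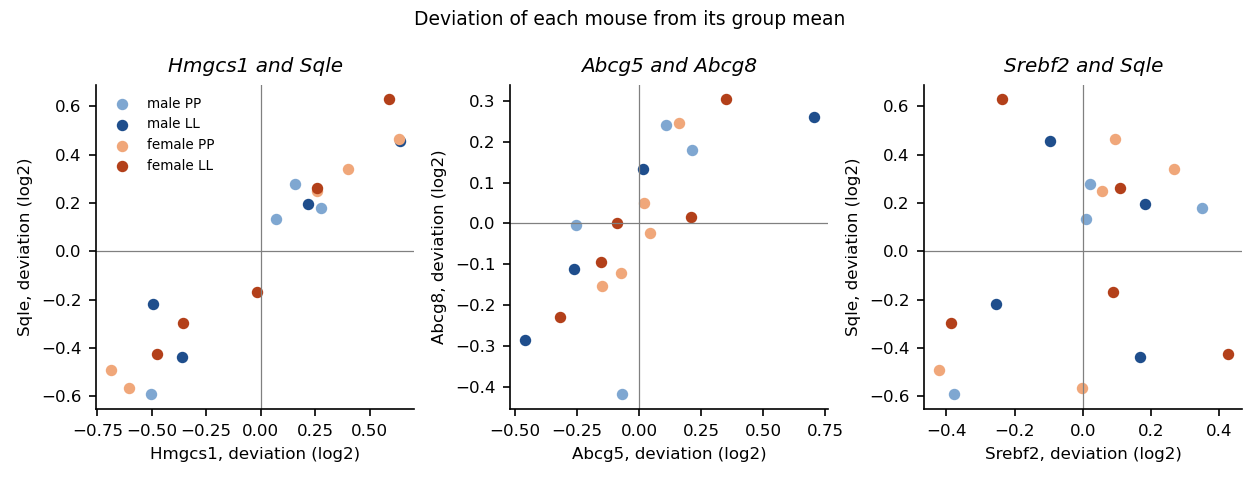
Deviation of each mouse from its group mean (log2 scale, both axes) for Hmgcs1 and Sqle, Abcg5 and Abcg8, and Srebf2 and Sqle, with mice coloured by group. The first pair lies close to a line (r = 0.97), the second less so (r = 0.76), and the third is scattered (r = 0.25).

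Over the 171 pairs of synthesis genes the median r was 0.38, with 68 pairs above 0.5 and 36 below 0. Against the mean of the other 18 synthesis genes, r was 0.94 for Sqle, 0.93 for Hmgcs1, 0.88 for Cyp51 (lanosterol demethylase), 0.86 each for Fdps, Fdft1 and Msmo1 (sterol C4 oxidase), and 0.81 for Lss (lanosterol synthase) and Nsdhl. It was -0.20 for Ggps1, whose product feeds protein prenylation, -0.12 for Ebp, 0.14 for Tm7sf2 and 0.24 for Sc5d. These values are descriptions over 18 mice that share library depth and scaling. The mean deviation of the 19 genes had r = 0.15 with fragment length and 0.19 with the mitochondrial share of counts. Single genes followed fragment length more closely, with r = 0.70 for Acat2, 0.58 for Sc5d and 0.51 for Abcg5.

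The synthesis level of a mouse, the geometric mean over the 19 genes, was 80.5% of the male PP mean in male PP 3 and 114.5% in male PP 4, the group's extremes. In female PP mice it was 138.4%, 91.6%, 133.6%, 93.0% and 115.2%, so that female PP 2 and 4 were well below female PP 1 and 3. In female PP 2 all 19 genes were below their group mean, and in female LL 1, at 156.0%, all 19 were above it. The group means were 100.9 ± 14.9% in male PP, 95 ± 12.6% in male LL, 114.4 ± 21.9% in female PP and, highest, 126.3 ± 17.7% in female LL mice.

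Abcg5 and Abcg8, whose starts are 12 bases apart, also deviated together (r = 0.76, permutation P = 0.00044, adjusted P = 0.00132; rho = 0.81, permutation P = 0.00021, adjusted P = 0.00063), with r = 0.71 without the 2 mice farthest from the median of Abcg5. Within groups r was 0.51 in male PP and 0.92 to 0.94 in the others, and male PP 3 was the mouse in which Abcg8 was low while Abcg5 was not. On the TPM scale r was 0.67, and the pair did not pass the adjusted test. Of their 31-base words 3.2% of Abcg5 and 1.36% of Abcg8 are shared with other genes. The other 4 pairs did not pass the test. Srebf2 with Sqle had r = 0.25 (permutation P = 0.36, adjusted P = 0.54; rho = 0.25, permutation P = 0.358, adjusted P = 0.537), and Insig1 with Sqle r = 0.11 (permutation P = 0.696, adjusted P = 0.696; rho = 0.16, permutation P = 0.56, adjusted P = 0.596). Abcg5 with Sqle had r = 0.14 (permutation P = 0.604, adjusted P = 0.696; rho = 0.26, permutation P = 0.312, adjusted P = 0.537). Insig1 with Insig2 had r = -0.23 (permutation P = 0.283, adjusted P = 0.54; rho = -0.14, permutation P = 0.596, adjusted P = 0.596). Without the 2 mice farthest from the median of the gene named first, r was 0.31 for Srebf2 with Sqle, 0.12 for Insig1 with Sqle, 0.15 for Abcg5 with Sqle and -0.14 for Insig1 with Insig2. In these 4 pairs r differed in sign between groups. Srebf2 with Sqle had 0.82 in male PP and 0.72 in female PP, against -0.1 in male LL and -0.36 in female LL. Insig1 with Insig2 had 0.4 and 0.96 in PP (males first), and -0.95 and -0.79 in LL. Insig1 with Sqle had -0.74 and 0.73 in PP, and 0.08 and -0.01 in LL. Abcg5 with Sqle had 0.09 and 0.84 in PP, and -0.2 and 0.35 in LL. Groups held 4 or 5 mice, and differences between them were not tested.

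Of 24 other cholesterol genes (SREBP proteases, ubiquitin ligases of the sterol response, LXR genes and further sterol carriers) 23 were tested. By LL genotype 0 of 23 were DEGs in male mice, in female mice or averaged, beside 0.283%, 0.658% and 0.978% of all genes. At an unadjusted p below 0.05 there were 4, 8 and 6, beside 7.81%, 13.0% and 13.8% of all genes. Gpr146, a receptor linked to plasma cholesterol, had normalized counts of 331 ± 60.5 in male PP, 228 ± 27.9 in male LL, 283 ± 53.4 in female PP and 205 ± 39.8 in female LL. Averaged over the sexes its log2 fold change was -0.50 ± 0.13 (adjusted P = 0.00845, and -0.53 in male and -0.47 in female mice), which did not reach the fold limit of 0.7. In PP mice 3 were called higher in females, beside 3.68% of all genes. They were Pltp, the phospholipid transfer protein (1.4 ± 0.35, adjusted P = 0.00227), Rnf145, a sterol-responsive ubiquitin ligase (0.84 ± 0.25, adjusted P = 0.0182), and Lipa, the lysosomal acid lipase (0.67 ± 0.18, adjusted P = 0.00651). In LL mice only Pltp was called (1.32 ± 0.34, adjusted P = 0.00418), beside 3.33% of all genes called higher in females. Of 10 clock genes, which vary with the hour of collection, 8 were tested and 0 were called in any of the 6 comparisons. These comparisons are between groups. They do not show whether the deviations shared by synthesis genes within groups followed the hour of collection.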

How the data were processed

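Whole-liver RNA was measured in 18 samples. The authors quantified reads with Salmon 1.4.0 (per the labels) against GENCODE M26 transcripts (GRCm39) and deposited, for each transcript, an estimated count, TPM, length and effective length. Here 137570 of 139225 transcripts, holding at least 99.76% of the counts, were joined to genes with GENCODE M39, and estimated counts were summed per gene and rounded. The 10938 genes that reached 10 counts in 4 or more libraries were fitted in DESeq2 1.42.0 (R 4.3.3), the tool of the study's methods, over the 4 groups together, with Benjamini-Hochberg adjustment over all genes. edgeR 4.0.16 was an alternative. Values in the text are counts divided by DESeq2 size factors, and errors are SD (means) or SE (fold changes). Intervals are 95% and cover the fitted spread. Named genes were every member called in any comparison, the member of each step with the smallest p by genotype in each sex, and 9 fixed genes (Hmgcs1, Sqle, Insig1, Insig2, Srebf2, Abcg5, Abcg8, Abca1 and Scarb1). Others named with values were chosen after their values were seen. The members and lists were chosen with earlier results of these data known. The fits were tested on simulated data. Within-group library pairs differed by more than sampling noise (chi-square of 11.8 to 97.4 per degree of freedom), so none was treated as a repeat. The alternatives were other scaling factors, filters, tools, terms for transcript length, fragment length, age or replicate number, fewer groups, and each mouse left out.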

Additional observations from a re-analysis of the deposited data

Results flagged for a closer look

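Of 136 sets of values (34 genes in 4 groups of 4 or 5 mice), 3 held a mouse whose gap to its nearest neighbour was large for the range of the group by Dixon's test, where chance flags about 1 in 20. Acat2 was 368 in female PP 3 against 258 to 276 in the other female PP mice. Ggps1 was 28.5 in female PP 5 against at most 21.7 in the others. Stard4 was 592 in male PP 1 against 424 to 438 in the others, all as normalized counts.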

How the results depend on the processing

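For the 21 members named by the rule given above, the direction of values with an unadjusted p below 0.05 held in all alternatives, with 1 exception. Insig2 averaged over the sexes became -0.27 with transcript length as an offset. Other genes named with values, such as Dhcr7, Fdft1, Tm7sf2 and Gpr146, were not part of this count. Member DEGs by LL genotype in male mice became 1 (Acat2) with fragment length as a term and 1 (Lrp1) with a replicate block. Averaged over the sexes they became 1 with fragment length (Acat2) or age (Lrp1) as a term. Leaving out each mouse gave 0 to 2 in male mice (Acat2 without male PP 4, and Ebp and Lrp1 without male LL 3), 0 to 1 in female mice (Ebp without female LL 2) and 0 to 1 averaged (Lrp1, without male PP 1, male PP 3, male LL 3, female PP 4 or female LL 5). Member DEGs by sex ran from 4 to 7 in PP and from 2 to 9 in LL mice with a mouse left out (2 without female LL 1 or 5, and 4 without male LL 1, male LL 2, female PP 2 or female LL 4). In LL mice they were 4 with edgeR, 2 with transcript length as an offset, 2 with a replicate block, 4 with the 2 groups alone and 1 with mice of 12 weeks or more, and in PP mice 0 in the last. Over all genes the 31, 72, 107 and 13 calls (male, female, averaged, interaction) were 3, 3, 9 and 0 with edgeR. They were 18, 11, 18 and 5 with the older mice, where sex gave 291 and 406 in place of 705 and 669. With transcript length as an offset they were 53 (male) and 28 (female), with fragment length 14 (female), 44 (averaged) and 432 (sex in LL mice), with age 44 (female) and 56 (averaged), and without independent filtering 8 (interaction). Mice left out gave 20 to 58, 28 to 276, 70 to 176, 3 to 27, 548 to 738 and 465 to 804 for male, female, averaged, interaction, and sex in PP and LL. Leaving out female PP 4 made the female count 276 and leaving out female LL 2 made it 128, while it was 42 or fewer without female PP 1, 2, 3 or 5 or female LL 1 or 4. The male count was 20 without male PP 2 and 58 without male LL 4, and the averaged count 70 without male PP 2, 176 without male PP 3 and 174 without female PP 4. Abcg5 with Abcg8 had r = 0.67 on the TPM scale and 0.70 to 0.88 with mice left out, and Insig1 with Sqle -0.07 to 0.32 (-0.07 without male LL 3). The causes were not tested. Deviations of same-numbered mice of different groups correlated between -0.13 and 0.19. These values gave no sign of pairing, but cannot exclude that equal numbers mark a shared batch. Within each group age rose or stayed equal with the replicate number, so the replicate block partly follows age and is given as a count only.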
